A study of Mus musculus with 4 samples.

Results

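The goblet cell and mucin genes described here are 10 genes taken by symbol from a deposited expression table of 16857 genes: Muc1, Muc2, Muc4, Muc13, Muc20, Tff3, Agr2, Fcgbp, Spdef and Atoh1. All 10 had a row. The table holds 4 bulk RNA-seq libraries, each from a different mouse adenoma colonoid line, that is, epithelium of an adenoma grown in culture as small spheres. The G0 group consisted of lines 75 (replicate 1) and 179 (replicate 2), labelled Apcnull with LSL-mTERT-het, and the G2 group of lines 157 (replicate 1) and 236 (replicate 2), labelled Apcnull with LSL-mTERT-homo. All lines thus shared the loss of Apc, the brake on Wnt signalling, and carried the LSL-mTERT allele of Tert, the catalytic subunit of telomerase, in 1 or both copies. The series compares colonoids of low and of high chromosomal instability, and the labels do not tie these names to G0 or G2. Each library is 1 line, the labels do not say that the lines came from separate mice, and they give no age or sex, so the p-values below measure only the spread between these lines.

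Mucus of the colon is made by goblet cells. A progenitor with low Notch signalling switches on the transcription factor Atoh1, which commits it to the secretory lineage, and the Ets factor Spdef then drives goblet cell maturation. The mature cell folds the gel-forming mucin Muc2 in the endoplasmic reticulum with the help of Agr2 and secretes it together with Tff3, Fcgbp and other proteins. Transmembrane mucins, here Muc1, Muc4, Muc13 and Muc20, are different in kind: they stay anchored in the apical membrane, form its glycocalyx and are also made by cells that are not goblet cells.

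The 4 libraries held 16545429 to 17901744 counts. Tert was at 93.3 and 97.5 normalized counts in G0 and at 0 and 1.0 in G2. Transcripts of 4 genes of the Y chromosome (Ddx3y, Uty, Eif2s3y, Kdm5d) were at 0 in both G0 libraries and between 296.2 and 526.4 in the G2 libraries, so the presence of Y transcripts and the group cannot be told apart for any gene below. The epithelial markers Epcam, Krt8 and Krt19 were abundant in all 4 libraries, with 5995 to 8669 normalized counts of Epcam. Among 6 fibroblast markers with a row, Dcn and Pdgfra were at 0 throughout and the summed level was 36.3 to 48.9, most of it Vim. Among 4 immune markers with a row, Ptprc was at 0 throughout, and the summed level was 2.0 in each G0 library and 26.2 and 30.3 in G2. In each of these 2 lists 1 gene rose in the test described below. The fibroblast marker Col3a1 was at 0 in both G0 libraries and at 7.1 and 6.8 in G2 (limma adjusted p = 0.0404). The immune marker Csf1r was at 0 in both G0 libraries and at 16.1 and 4.9 in G2 (limma adjusted p = 0.0431). Cdx2, the transcription factor of intestinal identity, was present in both groups but lower in G2, at 2395 and 3199 in G0 against 270.3 and 186.7 in G2. Levels in this text are normalized counts, which are counts recovered from the deposited log2 values and divided by the authors' library size factors.

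Atoh1, Spdef and Tff3 were at or near 0 in both groups and Muc2 was at 18.3 normalized counts or less, whereas the transmembrane mucin Muc1 was abundant and was lower in G2. Of the 10 members, 3 fell in G2, namely Muc1 (7.45-fold), Muc4 (14.3-fold) and Fcgbp (2.79-fold), and 0 rose. Muc2, Muc13, Muc20 and Agr2 did not pass the test, and Atoh1, Spdef and Tff3 were too low to be tested.

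Differences were tested with limma on log2(normalized count + 1) for the 13981 genes with a mean of at least 1, two-sided, with Benjamini-Hochberg adjustment over all of them and a threshold of 0.05. Of the members, 7 passed this filter on low values. Among all genes tested 10.5% passed the threshold, 5.93% higher and 4.56% lower in G2. The median log2 fold change was -1.44 over the 7 tested members and 0.01 over all genes. At an unadjusted p under 0.05 there were 5 members, Muc1, Muc4, Fcgbp, Muc2 and Muc20, all lower in G2. Both G2 libraries lay below both G0 libraries for these 5 and above them for Agr2, where 28.6% of all tested genes had both G2 libraries below and 29.2% above (57.8% together). The calls need all 4 libraries: without any 1 of them limma called 0 of the 13981 genes (2376 to 3221 at an unadjusted p under 0.05), members included, and 4 members then had an unadjusted p under 0.05. Fold sizes rest on the recovered counts, and no source used here states the transformation that was inverted. Taken on the deposited log2 values themselves, where low levels lie close together, the differences were -2.77 for Muc1, -2.48 for Muc4, -0.59 for Fcgbp and -0.32 for Muc2, and the same 3 members passed. Among the genes described further on, Clca1 differed by 0.81 and Muc16 by 0.71 on that scale. With no filter on low values, where 1290 genes with a count of 0 in every library enter the fit, adjusted p was 0.0824 for Muc1, 0.0997 for Muc4 and 0.155 for Fcgbp.

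**Figure D1:**
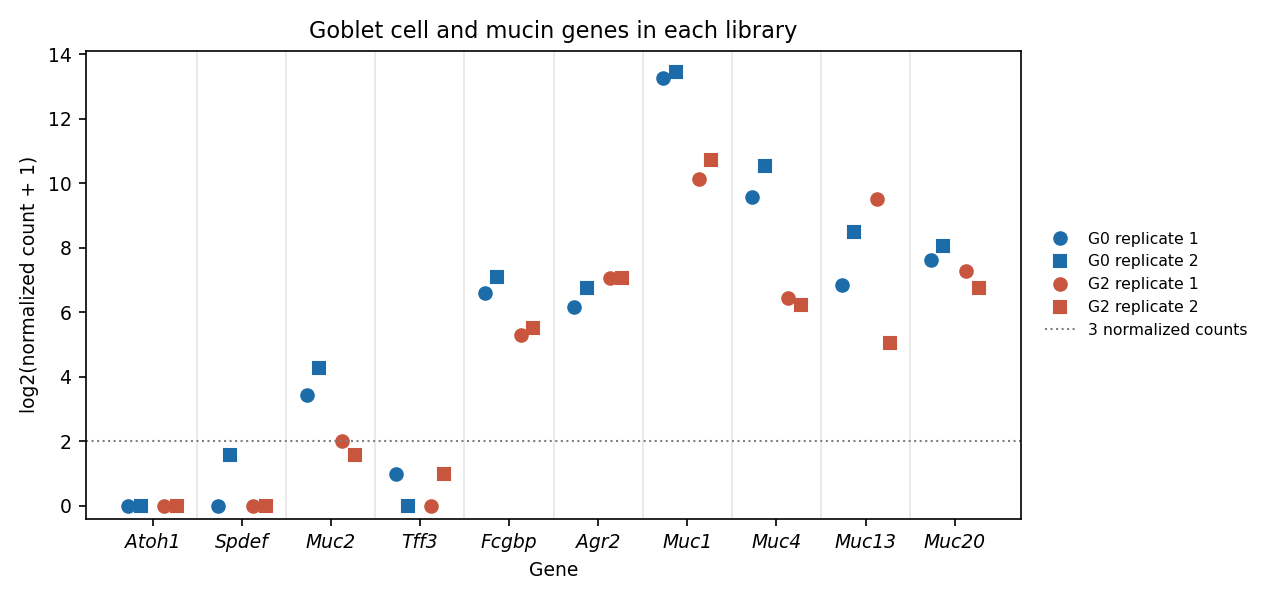
Level of the 10 members in each library, as log2(normalized count + 1) on the vertical axis, with G0 in blue, G2 in red, circles for replicate 1 and squares for replicate 2. The dotted line marks 3 normalized counts. Atoh1, Spdef and Tff3 lie below it in all 4 libraries, Muc1 is the highest member in every library, and for Muc1, Muc4 and Fcgbp both red points lie below both blue points.

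The promoters of the 3 members that fell, and of Muc2, which defines the goblet cell, are printed because the comparison turns on these genes. Each is the 250 bases before the RefSeq start site on GRCm38.p6, all on the plus strand: chr3:89228806-89229055 for Muc1, chr16:32735636-32735885 for Muc4, chr7:28070986-28071235 for Fcgbp and chr7:141690090-141690339 for Muc2. Capitals mark matches, on either strand, to CAGNTG (the E-box form bound by helix-loop-helix factors such as Atoh1), CCGGAT (Spdef and other Ets factors), TTTATNG (Cdx2) or TGTTTNC (Foxa factors). The sequences are written 5′ to 3′.
Muc1: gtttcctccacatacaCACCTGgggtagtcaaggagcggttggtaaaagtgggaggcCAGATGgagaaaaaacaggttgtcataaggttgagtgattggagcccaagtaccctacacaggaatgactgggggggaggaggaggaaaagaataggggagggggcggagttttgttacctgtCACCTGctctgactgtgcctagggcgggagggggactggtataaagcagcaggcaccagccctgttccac
Muc4: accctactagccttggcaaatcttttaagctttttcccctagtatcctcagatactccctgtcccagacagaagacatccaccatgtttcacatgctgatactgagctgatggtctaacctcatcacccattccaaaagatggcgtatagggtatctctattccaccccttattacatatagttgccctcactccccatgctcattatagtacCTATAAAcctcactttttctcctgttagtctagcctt
Fcgbp: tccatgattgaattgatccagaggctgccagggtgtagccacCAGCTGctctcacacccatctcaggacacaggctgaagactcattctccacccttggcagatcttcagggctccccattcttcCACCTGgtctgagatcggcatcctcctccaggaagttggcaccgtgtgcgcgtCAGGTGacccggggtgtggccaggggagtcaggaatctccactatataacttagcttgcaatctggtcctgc
Muc2: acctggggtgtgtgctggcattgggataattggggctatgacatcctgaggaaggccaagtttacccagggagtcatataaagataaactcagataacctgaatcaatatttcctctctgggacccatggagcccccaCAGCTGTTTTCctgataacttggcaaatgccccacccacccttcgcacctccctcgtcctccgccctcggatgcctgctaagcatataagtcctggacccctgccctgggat
Muc1 and Fcgbp each held 3 matches to CAGNTG and none to the other motifs. Muc4 held 1 match, to TTTATNG, 37 bases before the start. In Muc2 a CAGNTG match and a TGTTTNC match overlap by their shared TG. In 32851 promoter windows of the same length, CAGNTG occurred in 44.8%, TGTTTNC in 17.8%, TTTATNG in 9.81% and CCGGAT in 4.94%. The 4 promoters therefore share no single motif of this set, and a match is a run of letters, not a measured binding site. RefSeq promoters were found for 9 of the 10 members, all but Tff3.

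Atoh1, the master regulator of the secretory lineage (chromosome 6 from 64729125 to 64731245), was not detected in any of the 4 libraries, with a count of 0 in each. Spdef, which acts downstream of Atoh1 in goblet cells (chromosome 17 from 27714446 to 27731003), had 2 counts in G0 replicate 2 and 0 in the other libraries. A count of 0 allows up to 3 counts per library, or 2.93 to 3.05 normalized counts, by counting error alone. Both factors were at or under this floor in each group, so no fold was computed and a difference between the groups was not detectable at this depth.

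Muc2, the gel-forming mucin that builds the colonic mucus layer (chromosome 7 from 141690340 to 141754691), was found at 9.8 and 18.3 normalized counts in G0 and at 3.0 and 2.0 in G2. The G2 libraries lay below the G0 libraries, but they hold 3 and 2 counts. The G0 mean was 14.1 ± 6.0 and the G2 mean 2.5 ± 0.8 (SD over 2 libraries, as throughout), a ratio of 5.64, and the log2 fold change of -2.07 (SE 0.60) did not pass in limma (adjusted p = 0.0748). Tff3, the trefoil peptide that goblet cells secrete with Muc2 (chromosome 17 from 31125306 to 31129611), had a single count in G0 replicate 1 and another in G2 replicate 2. It was under the floor in both groups, as were its regulators.

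Fcgbp, a large mucus protein that is joined to Muc2 in the secreted gel (chromosome 7 from 28071236 to 28120864), stood at 95.2 and 137.1 normalized counts in G0 and at 38.3 and 45.0 in G2. The groups did not overlap. It fell 2.79-fold, from 116.2 ± 29.6 to 41.6 ± 4.7 (log2 fold change -1.44, SE 0.32, limma adjusted p = 0.0338). It did not pass in limma without an intensity trend in the variance prior (adjusted p = 0.0718). The value is uncertain because of a related neighbour: 6.4% of the 50-base words in the GENCODE M21 transcripts of Fcgbp also occur in those of 9530053A07Rik, a gene within 100 kb that RefSeq gives the synonym FCGBP. That neighbour had nearly the same profile, with 106.0 and 121.9 normalized counts in G0 and 44.4 and 49.9 in G2, and fell too (log2 fold change -1.26, limma adjusted p = 0.0359). How far reads of these genes were shared between them in counting is not given in the sources used here. A RefSeq pseudogene, Gm21925, also overlaps Fcgbp over 27553 bases.

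Agr2, the disulfide isomerase of the endoplasmic reticulum that Muc2 folding requires (chromosome 12 from 35992925 to 36004081), had 71.7 and 107.7 normalized counts in G0 and 134.1 and 132.0 in G2. Both G2 libraries lay above both G0 libraries, with means of 89.7 ± 25.5 and 133.0 ± 1.5, but the log2 fold change of 0.59 (SE 0.29) did not pass in limma (adjusted p = 0.237).

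Muc1, a transmembrane mucin of many glandular epithelia (chromosome 3 from 89229056 to 89233381), took 88.8% and 82.3% of the summed counts of the 10 members in G0, and 49.8% and 81.2% in G2. Its level was 9959 and 11131 normalized counts in the G0 libraries and 1137 and 1696 in the G2 libraries. The highest G2 library was thus far below the lowest G0 library. Muc1 fell 7.45-fold, from 10545 ± 828.5 to 1416 ± 395.5 (log2 fold change -2.92, SE 0.20, limma adjusted p = 0.000508). Leaving out a library in turn kept the log2 fold change between -3.21 and -2.63. Muc1 shared none of its 50-base words with another GENCODE gene.

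The fall of Muc1 was larger than any difference among its neighbours. Of 15 other tested genes within 100 kb, 1 rose and 1 fell, and their log2 fold changes lay between -0.96 and 1.09. The gene that fell was Krtcap2, a subunit of the oligosaccharyltransferase complex, at a log2 fold change of -0.69, and the one that rose was Fam189b, at 1.09. Neither passed without a trend in the variance prior (adjusted p = 0.136 and 0.106), and Krtcap2 did not with scaling by the total count (0.0655). These neighbours were looked up after the values of Muc1 had been seen.

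Muc4, a large transmembrane mucin that can bind the receptor ERBB2 (chromosome 16 from 32735886 to 32782391), had 763.9 and 1504 normalized counts in G0 and 85.7 and 73.3 in G2. Replicates of G0 differed from each other, but each was far above both G2 libraries. Muc4 fell 14.3-fold, from 1134 ± 523.6 to 79.5 ± 8.8 (log2 fold change -3.74, SE 0.32, limma adjusted p = 0.00117), the largest fold among the members. The log2 fold change was between -4.23 and -3.25 when a library was left out.

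Muc20, a smaller transmembrane mucin, lies next to Muc4 on the opposite strand (chromosome 16 from 32777419 to 32797435), and the annotated genes overlap at their 3′ ends over 4973 bases. Of its 50-base words 12.1% also occur, on one strand or the other, in Muc4, and 4.3% of those of Muc4 occur in Muc20. The strand setting of the counting is not given in the sources used here, so reads from the overlap cannot be assigned with certainty. Muc20 had 196.4 and 267.2 normalized counts in G0 and 154.3 and 106.5 in G2. The G2 libraries were the lower ones, but the log2 fold change of -0.83 (SE 0.28) did not pass in limma (adjusted p = 0.111). The 3 other tested genes within 100 kb of Muc4, namely Tnk2, Rubcn and Fyttd1, had log2 fold changes between -0.15 and 0.07 and did not pass.

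Muc13, a transmembrane mucin of the intestinal surface (chromosome 16 from 33794037 to 33819929), was the tested member with the largest SE on the log2 scale. Its level was 113.9 and 359.6 normalized counts in G0 and 730.2 and 32.3 in G2. The highest and the lowest library were both G2 lines, so the groups overlapped completely. The means were 236.7 ± 173.7 in G0 and 381.2 ± 493.5 in G2, while the log2 fold change was -0.38 (SE 1.29, limma adjusted p = 0.872), of the opposite sign to the difference of the means. Without G2 replicate 2 the log2 fold change was 1.84. Without G2 replicate 1 the mean of G0 was 7.34-fold above the remaining G2 library. The annotated gene Gm15658 overlaps Muc13 over 2103 bases, and 5.2% of the 50-base words of Muc13 also occur in Gm15657.

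**Figure D2:**
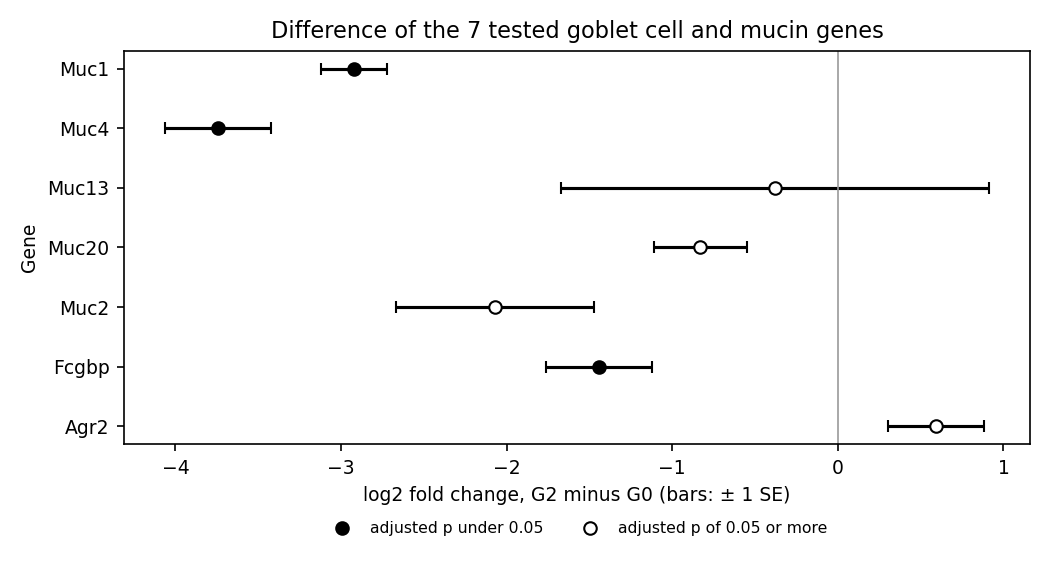
log2 fold change of G2 minus G0 for the 7 tested members, on the log2(normalized count + 1) scale, with bars of 1 SE from limma and filled points for an adjusted p under 0.05. Muc1, Muc4 and Fcgbp are filled and lie to the left of 0, Agr2 is the only point to the right of 0, and Muc13 has by far the widest bar.

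Levels can be compared between genes only per length, and for this normalized counts were divided by the length of each gene's GENCODE M21 exons. In G0 Muc1 stood at 4700 normalized counts per kilobase, far above Agr2 (114), Muc4 (101), Muc13 (77.9) and Muc20 (57.6). The single-library values of Agr2, Muc4 and Muc13 ran from 91.4 to 137, from 67.7 to 133 and from 37.5 to 118, so these neighbours in the order do not differ beyond their spread. Fcgbp (14.6) and Muc2 (4.47) were lower still. In G2 Muc1 remained first at 632 per kilobase, followed by Agr2 (170), Muc13 (125) and Muc20 (32.4). Muc4 (7.05) and Fcgbp (5.25) came next and Muc2 (0.793) was the lowest of the 7. Exon lengths came from the basic set of GENCODE M21, where the model of Muc2 consists of separate fragments totalling 3142 bases. The GENCODE M21 transcripts of Muc2 held 6962 distinct 50-base words, more than these fragments. For Fcgbp the basic set held 7932 bases and the transcripts 10540 such words. Exon sequence can thus be missing from both lengths, which would make both levels per kilobase too high.

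Counted per length, Muc1 made up 94.4% and 91.2% of the members' summed level in G0 and 52.3% and 77.5% in G2. The lower of the G2 shares belongs to replicate 1, the line with the high Muc13. The members together took 0.0666% and 0.0744% of all normalized counts in the G0 libraries and 0.0137% and 0.0125% in the G2 libraries. In bulk RNA, fewer cells of a kind and less RNA per cell cannot be told apart.

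The genes with a profile most like that of Muc2 were sought over the 4 libraries among 9936 genes with a mean of at least 100, by the Euclidean distance between centred log2(normalized count + 1) values. They were Tnfaip2 (distance 0.31), Gucy2c, the guanylin receptor of the intestinal epithelium, and Emp1 (0.40 each), then Tnnt2 and Cdc42ep2 (0.43 each). Gucy2c had 186.6 and 229.6 normalized counts in G0 and 52.4 and 38.1 in G2. This is a description over 4 libraries, and Muc2 itself rests on few counts. Atoh1 has no profile to compare.

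Upstream of goblet cell fate, a list of 20 Notch pathway genes and secretory transcription factors, which includes Atoh1 and Spdef, all had a row. Of the 16 that were tested, 3 rose and 2 fell, with a median log2 fold change of 0.18. Foxa2 and Foxa3, forkhead factors of endoderm that are also expressed in goblet cells, both rose. The mean of Foxa2 was 136.1 ± 21.6 in G0 against 534.9 ± 30.8 in G2, and that of Foxa3 187.2 ± 35.6 against 554.2 ± 157.6 normalized counts (limma adjusted p = 0.00237 and 0.0128). The receptor gene Notch2 rose 2.67-fold, from 1101 ± 210.1 to 2944 ± 231.4 (limma adjusted p = 0.0039), whereas the Notch ligand gene Jag1 fell 3.38-fold, from 450.6 ± 105.7 to 133.1 ± 55.6 (limma adjusted p = 0.0181). Klf4, a factor of goblet cell differentiation and the other gene of the list that fell, had 1953 and 2415 normalized counts in G0 and 1285 and 1402 in G2 (limma adjusted p = 0.034). Hes1, the Notch target that represses Atoh1, was expressed in all lines, at 1186 and 1285 in G0 and 1191 and 926.6 in G2 (limma adjusted p = 0.404). Klf4 and Hes1 are named after their values were seen. Without an intensity trend in the variance prior, Foxa3, Notch2, Jag1 and Klf4 had adjusted p of 0.0835, 0.0546, 0.105 and 0.145.

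Other products and granule genes of goblet cells went both ways. Of 25 listed genes 24 had a row, 17 were tested, 3 rose and 1 fell, with a median log2 fold change of 0.47. Clca1, a protease of the mucus layer, had 2.0 and 1.0 normalized counts in G0 and 67.6 and 26.4 in G2. Both G2 lines were above both G0 lines, the ratio of means was 31.5 (95% exact counting interval 10.3 to 154) and limma adjusted p was 0.00911. Without G2 replicate 1 the ratio was 17.7. Scin, an actin-severing protein, rose from 7.0 ± 1.2 to 54.5 ± 35.6 (limma adjusted p = 0.0303). Without G2 replicate 1 it was 4.2-fold higher in place of 7.81-fold, and on the deposited log2 values its adjusted p was 0.0532. Capn8, a calpain of mucous cells, had 2.0 and 0 normalized counts in G0 and 15.1 and 17.6 in G2, a ratio of 16.7 (95% exact counting interval 4.2 to 141; limma adjusted p = 0.032). Without G0 replicate 2 that ratio was 8.33, and without G0 replicate 1 it could not be formed because the remaining G0 library is at 0. Without a trend in the variance prior, Scin and Capn8 had adjusted p of 0.0973 and 0.0741. The potassium channel gene Kcnk6 fell 3.28-fold, from 205.7 ± 2.1 to 62.7 ± 11.2 (limma adjusted p = 0.00926). Ang4, Sval1 and Tff2 had a count of 0 in every library, and Tff1 had no row.

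Enzymes that build O-glycans on mucins went both ways, and those that passed the test fell. All 23 listed genes had a row and 22 were tested. Of these 5 fell and 0 rose (limma), with a median log2 fold change of -0.12. Among all genes tested 4.56% fell and 5.93% rose. Chst4, a sulfotransferase of mucin glycans, had 704.0 and 1034 normalized counts in G0 and 90.8 and 127.1 in G2, and fell 7.98-fold (log2 fold change -2.98, SE 0.26, limma adjusted p = 0.00128). Galnt12 and Galnt10, which add the first sugar to serine or threonine, fell 2.87-fold and 2.71-fold (limma adjusted p = 0.00615 and 0.00631). Gcnt1, which branches the core structure, fell 1.99-fold (limma adjusted p = 0.0251, and 0.0764 without a trend in the variance prior). The fifth was Fut2, a fucosyltransferase, at 1464 and 1824 in G0 and 1048 and 902.2 in G2 (limma adjusted p = 0.0336, and 0.143 without that trend), named after its values were seen. St6galnac1, a sialyltransferase of goblet cells, had a count of 0 in all 4 libraries. In St3gal1, Galnt5, St6galnac6, Galnt6 and Gcnt4 both G2 libraries lay above both G0 libraries. They did not pass (limma adjusted p from 0.0552 for St3gal1 to 0.157 for Gcnt4) and are named after their values were seen.

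Among 16 other mucin and mucin-like genes, 7 had a row and 5 were tested, of which 2 rose and 0 fell (limma), with a median log2 fold change of 2.87. That median is the value of Muc3, which did not pass and was high in G2 replicate 1 alone. Without that library the log2 fold change of Muc3 was -1.79. Cd164 and Mucl3, the latter named after its values were seen, had log2 fold changes of -0.07 and 0.05. Muc16, a transmembrane mucin, had 6.9 and 2.0 normalized counts in G0 and 56.5 and 38.1 in G2. It rose 10.6-fold (log2 fold change 3.28, SE 0.59, limma adjusted p = 0.0175), a ratio that was 23.3 without G0 replicate 1 and 6.88 without G0 replicate 2. The adjusted p of Muc16 was 0.0686 without a trend in the variance prior. Muc6, a gel-forming mucin of the stomach and a neighbour of Muc2 on chromosome 7, was at 0 in both G0 libraries and at 12.1 and 5.9 in G2, at least 3-fold higher against a floor of 3 counts per library (limma adjusted p = 0.0354). The gastric mucin gene Muc5ac had at most 2.0 normalized counts in any library. Of 7 listed gastric mucous cell markers, which include Muc6 and Muc5ac, 5 had a row and 2 were tested. Those with a row summed to 100.2 and 107.7 in G0 and to 29.2 and 83.1 in G2, most of it Gkn3. Gkn3 was at 100.2 and 106.7 in G0 and at 17.1 and 75.3 in G2, and did not pass (limma adjusted p = 0.186). Cd164, a sialomucin, stood at 3601 ± 699.5 and 3413 ± 222.1 (limma adjusted p = 0.833). With no filter on low values, the genes that the plot of these 4 lists shows as passing had adjusted p from 0.0766 for Foxa2 to 0.194 for Scin.

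**Figure D3:**
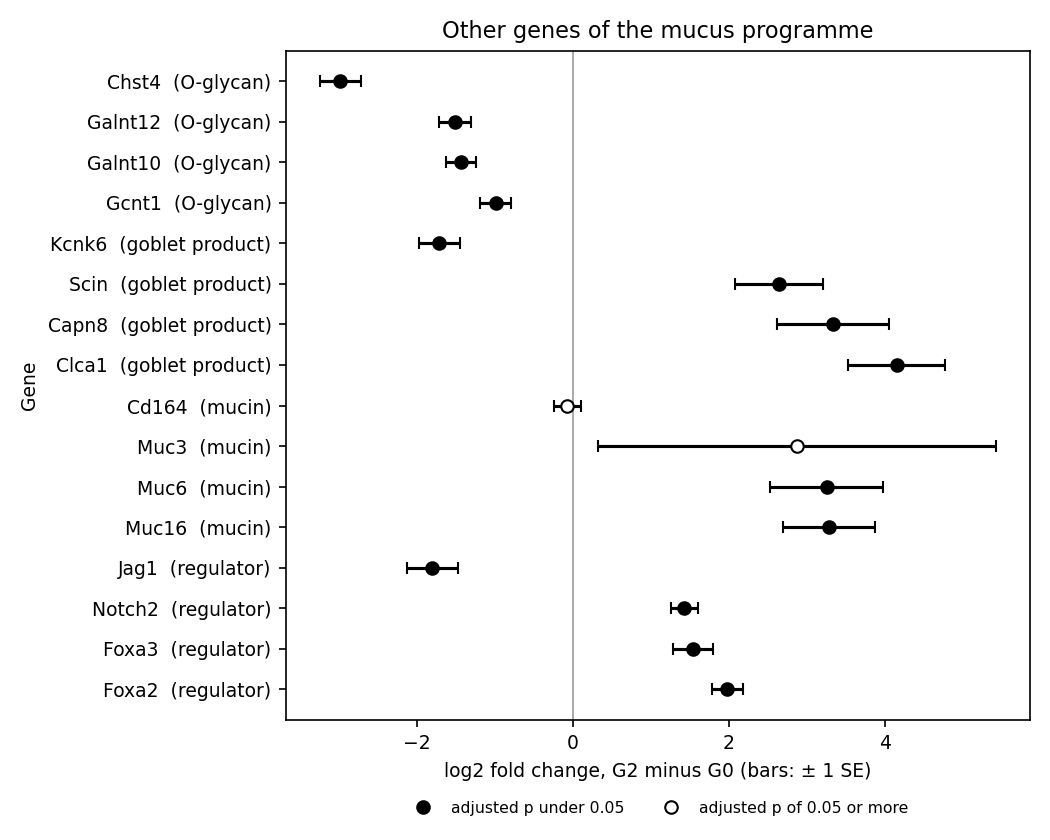
log2 fold change of G2 minus G0, with bars of 1 SE from limma, for the 4 genes with the smallest p of each of the 4 lists. Filled points have an adjusted p under 0.05. The 4 O-glycan genes lie to the left of 0, from -2.98 for Chst4 to -0.99 for Gcnt1, while the regulators and goblet cell products fall on both sides.

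G2 replicate 1 held transcripts of some genes of mature surface or goblet cells that were low or not found in the other G2 line. Muc3, a transmembrane mucin of the intestinal brush border, had 636.4 normalized counts in G2 replicate 1 and 0 in G2 replicate 2, against 2.9 and 2.0 in G0 (limma adjusted p = 0.507). Zg16, a lectin of goblet cell granules, had 109.9 in G2 replicate 1, 0 in G2 replicate 2, and 1.0 and 0 in G0. Krt20, a keratin of differentiated surface epithelium, had 93.8 and 4.9 in G2 and 1.0 and 0 in G0. The water channel gene Aqp8 had 15.1 in G2 replicate 1 and at most 1.0 elsewhere. In Muc3, Zg16 and Aqp8, as in Muc13, G2 replicate 2 lay at or below at least 1 G0 library, so the groups overlapped. In Krt20 both G2 libraries lay above both G0 libraries, and it did not pass in limma (adjusted p = 0.088). Zg16, Krt20 and Aqp8 were singled out after their values were seen. Of the other colonocyte markers, Slc26a3, Guca2a, Ms4a12 and Car4 had 1.0, 2.0, 2.0 and 6.1 normalized counts in G2 replicate 1. Ceacam20 and Car1 had 13.1 and 4019. Among goblet cell genes, Muc2, Tff3 and Spdef had 3.0, 0 and 0 in that library, and Clca1 had 67.6.

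The lists of markers of other epithelial cell types gave the following levels beside these genes. The summed level of 8 absorptive colonocyte markers was 45.2 and 110.7 in G0 and 4152 and 515.1 in G2, nearly all of it Car1, a carbonic anhydrase of colonocytes, which rose (log2 fold change 4.46, SE 0.91, limma adjusted p = 0.0264). The ratio of means for Car1, 31.2, was 7.01 without G2 replicate 1, 55.5 without G2 replicate 2 and 59.1 without G0 replicate 2. Slc26a3, Car4 and Guca2a of the same list had at most 6.1 normalized counts in any library. The summed level of 8 goblet cell markers, 5 of them members, was 180.7 and 266.1 in G0 and 353.0 and 210.2 in G2, so the groups overlapped. The 8 enteroendocrine markers summed to 3.0 to 10.2, with Chgb, Neurod1 and Gcg at 0 in all libraries. Of 6 listed tuft cell markers, 5 had a row, and these summed to 145.3 and 150.3 in G0 and 282.4 and 434.0 in G2, with Pou2f3 at 0 throughout; Avil was the 1 marker of the 4 tested that passed, and it rose (limma adjusted p = 0.0359). The 5 stem cell markers summed to 8245 and 8518 in G0 and 11507 and 14420 in G2. Of the 4 tested only Axin2, a Wnt target, passed and rose (limma adjusted p = 0.0171). Axin2 and Smoc2 had means of 4687 and 1944 in G0 and of 8256 and 3074 in G2. The means of Lgr5 and Ascl2 were 1208 and 543.6 in G0 and 1173 and 461.1 in G2. Olfm4 was at 0 throughout. Of 8 markers of colon epithelium, all tested, 1 rose and 2 fell, with a median log2 fold change of 0.06. Cdh1 (E-cadherin) rose 1.8-fold (limma adjusted p = 0.0171), and Cdx2 and Vil1 (villin) fell 12.2-fold and 4.42-fold (limma adjusted p = 0.00043 and 0.0103), the latter 7.06-fold without G2 replicate 1. Vil1 and Car1 had adjusted p of 0.0983 and 0.148 without a trend in the variance prior. The part of these levels in the levels of the mucin genes was not tested.

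**Figure D4:**
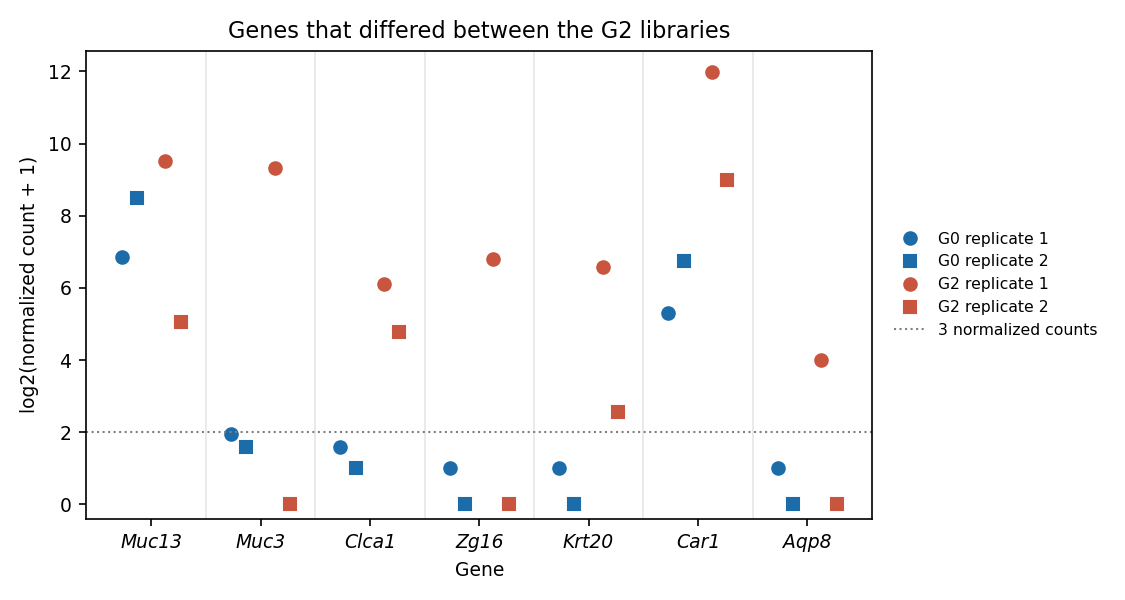
Level of Muc13, 2 mucus or goblet cell genes besides Muc3, and 3 markers of surface colonocytes in each library, as log2(normalized count + 1), with G0 in blue, G2 in red, circles for replicate 1 and squares for replicate 2. The red circle, G2 replicate 1, is the highest point for each of the 7 genes, and for Muc3, Zg16 and Aqp8 the red square of G2 replicate 2 lies at 0. The genes were picked for the plot because they differed between the G2 libraries, so this pattern follows from the choice.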

How the data were processed

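RNA of 4 colonoid lines was sequenced, 1 library each. Tools named without roles in the submitters' processing notes are DESeq2 1.32.0, StringTie 2.1.1, HISAT2 2.1.0, bcl2fastq 2.20.0 and R 3.5.2, with the build mm10. The sources used here do not give the annotation, strand setting or read filters. The values the authors deposited are on a log2 scale with 6.508 as the lowest value of each library, the form of a variance-stabilizing transformation. Inverting it with that floor and 1 scale per library gave whole numbers within 0.001 for 100% of values. StringTie estimates coverage, so these counts can be rounded estimates, and limma 3.58.1 (R 4.3.3, eBayes with an intensity trend, group as the only term) was used rather than a count model. The plan had assumed normalized counts and was kept. The fit was tested on simulated data in which every gene had the same variation between libraries beyond counting error. The spread between the lines differed by gene, so that test cannot give the error rate of the calls made here. The inversion formula was applied only to values simulated with the same transformation and the exact floor, so its outcome was fixed in advance. The estimate of the scale per library was not tested on simulated data.

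Errors of means are the SD of 2 libraries, and a fold is a ratio of means. Floors and intervals cover counting error only, since PCR copies are not independent molecules. Positions and promoters come from RefSeq GRCm38.p6 (mm10), in which 16441 of 16857 symbols matched. Exon lengths come from the basic set of GENCODE M21 and transcript words from its transcript sequences. The text names every member and, from each of 4 lists of related genes, the 4 with the smallest p that are not members. Members, lists and tests were chosen with earlier results of these data known. The closing section gives 13 alternative settings.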

Additional observations from a re-analysis of the deposited data

How the results depend on the processing

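The count of members past the threshold was 3 and became 0 with no filter on low values, 5 with the replicate block (Muc2 at adjusted p = 0.0364 and Muc20 at 0.0199 joined Muc1, Muc4 and Fcgbp; outside the members Krt20 also passed, at 0.00152), and 0 to 0 when 1 library was left out; under the 7 other settings it was 2 or 3. The count over all genes was 1467 and became 225 with no filter, 623 with eBayes without a trend, 3503 with the replicate block, and 0 to 0 with a library left out, where the remaining library of its group is assumed to vary like the other group. Replicate numbers name different lines and do not pair them: across 12080 genes the deviations of same-numbered libraries correlated at 0.174, with only 2 pairs. The sign turned for Muc13 on the deposited log2 values (0.04) and without a library (-2.61 to 1.84), for Cd164 under scaling by the total count (0.00) and without a library (-0.26 to 0.13), and without a library for Muc3 (-1.79 to 7.53) and Zg16 (-0.49 to 6.30). Scaling by the total count moved the median of all log2 fold changes by 0.065. Depth limits Atoh1, Spdef, Tff3 and Muc2, which hold from 0 to 18 counts per library.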
